A study of Homo sapiens
Mus musculus with 16 samples.

Results

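Host transcripts of bladder cancer xenografts were compared between tumours given nintedanib together with alpelisib and tumours given vehicle. The comparison takes all mouse genes with a normalized value of at least 1 in at least 4 of the 16 libraries of the series, on the log2(value + 1) scale. This rule kept 17484 of the 23337 mouse genes listed, of which 21202 had a read in some library. It uses 8 of the 16 libraries directly, 4 from each group, and the other 8 (nintedanib alone and alpelisib alone) share in the estimate of the spread.

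All tumours were grown from ScaBER, an established cell line from a human bladder squamous carcinoma, in athymic nude mice (Hsd:Athymic Nude-Foxn1nu), and were sampled after 14 days. The vehicle was 0.5% methylcellulose with 0.1% Tween80. The combination group received alpelisib at 25 mg/kg and nintedanib at 40 mg/kg, and the single-drug groups received the same doses. The source label calls the tissue PDX, although the transplanted cells are a cell line. The labels do not tie libraries to animals. The p-values therefore cover only the spread among these samples, and that spread may be technical. The mouse reads come from every host cell in the tumour piece, and nude mice lack a thymus and have few mature T cells but keep NK and B cells.

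Nintedanib blocks the kinase activity of VEGF, PDGF and FGF receptors, which drive endothelial sprouting, the recruitment of mural cells to vessels and the growth of fibroblasts. Alpelisib (BYL719) blocks the alpha isoform of PI3K, a kinase that acts below these receptors and below the insulin receptor. Stroma of a tumour consists of vessels with their basement membrane, pericytes and smooth muscle, of fibroblasts with the matrix they lay down, and of immune cells. Endothelial Notch signalling, with the ligand Dll4 and the receptors Notch1 and Notch4, sets which endothelial cells lead a sprout.

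Depth was 3606008 (vehicle 4) to 6850491 (combination 2) mouse reads per library. Mouse reads made up 19.3% to 24.1% of all reads with vehicle and 20.5% to 31.5% with both drugs. The gene with the most mouse reads was the ribosomal RNA gene Rn45s, except in combination 2, where it was the collagen gene Col1a1. Libraries also carried neighbouring host tissue. The 21 skeletal muscle genes took 3.39% of the mouse signal in combination 1 and 5.14% in nintedanib 4, 0.803% in vehicle 2, and at most 0.218% in the other 6 libraries of this comparison. The 15 adipocyte genes took 0.600% in vehicle 1 and 0.134% in combination 2.

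With both drugs 8 host genes fell and 1 rose. The ones that fell include the vessel adhesion molecule Mcam, the endothelial receptor Notch4 and the imprinted gene Mest, and the one that rose was Id2, an inhibitor of DNA-binding transcription factors. In all, 9 of the 17484 genes passed an adjusted p of 0.05 (0.0515%), 1 of them higher (0.00572%) and 8 lower (0.0458%), by limma with Benjamini-Hochberg adjustment. Before adjustment 1341 genes had a p under 0.05 (7.67%), 749 higher (4.28%) and 592 lower (3.39%). The combination and vehicle libraries did not overlap in 673 genes (3.85%), 351 higher (2.01%) and 322 lower (1.84%). The median difference over all genes tested was log2 0.03, and 9270 genes stood above 0 (53%). These 9 genes are the only ones past the threshold, so every other gene below is given by its values and not as a change.

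Values are normalized reads per gene, given in the order of replicates 1 to 4, and cannot be compared between genes as numbers of molecules. Mcam (CD146), an adhesion molecule of endothelial cells and pericytes, read 610, 523, 578 and 686 with vehicle and 339, 238, 213 and 278 with both drugs. It fell by 1.18 on the log2 scale (SE 0.17, adjusted p = 0.0205, limma), to 0.446 of the vehicle level. Notch4, the Notch receptor of endothelial cells, read 150, 117, 168 and 171 with vehicle against 52.5, 61.4, 42.4 and 41.6. Its difference was -1.60 (SE 0.26, adjusted p = 0.0232, limma), a ratio of 0.327. Prnd, which encodes the prion-like protein doppel, read 111, 108, 122 and 182 with vehicle and 36.2, 49.6, 28.7 and 31.4 with both drugs (-1.81, SE 0.32, adjusted p = 0.0409, limma). In each of these genes the highest combination library lay below the lowest vehicle library.

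Trp53i11, a p53-inducible gene, had the largest drop of the 9. It read 644, 391, 833 and 733 with vehicle and 185, 229, 102 and 112 with both drugs, a difference of -2.07 (SE 0.34, adjusted p = 0.0232, limma). Chst1, a sulfotransferase that modifies carbohydrate chains, read 986, 328, 986 and 523 with vehicle and 245, 191, 159 and 89.2 with both drugs. Its vehicle values spread widely, and the difference of -1.99 had the largest SE of the 9 (0.36, adjusted p = 0.0463, limma). Cdc42ep1, an effector of the small GTPase Cdc42, read 133, 163, 106 and 119 against 56.2, 56.8, 37.8 and 47.6 (-1.37, SE 0.24, adjusted p = 0.0409, limma).

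Mest, an imprinted gene expressed from the paternal allele, read 204, 301, 214 and 412 with vehicle and 125, 81.0, 65.4 and 81.1 with both drugs. It fell by 1.65 on the log2 scale (SE 0.25, adjusted p = 0.0205, limma). Hoxc9, a homeobox factor that marks body position, read 510, 459, 629 and 390 against 240, 268, 175 and 202 (-1.16, SE 0.21, adjusted p = 0.0409, limma). Id2 moved the other way. It read 161, 231, 182 and 295 with vehicle and 447, 485, 688 and 624 with both drugs, a rise of 1.38 (SE 0.22, adjusted p = 0.0205, limma) to 2.58 times the vehicle level. In all 9 genes the combination and vehicle libraries did not overlap.

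**Figure D1:**
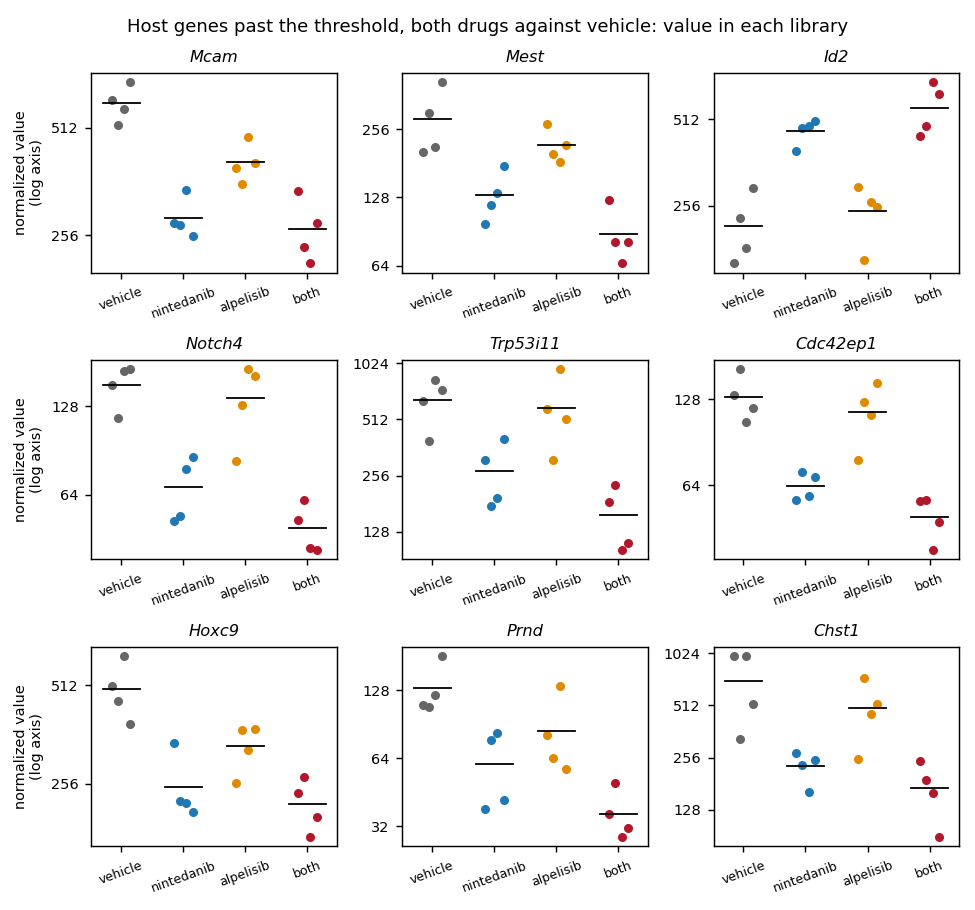
Normalized value (log axis) in each library for the 9 genes past the adjusted threshold, by group; points are libraries and lines are group means. The combination libraries lie apart from the vehicle libraries in all 9 panels, as for Id2 (161 to 295 with vehicle, 447 to 688 with both drugs), while the nintedanib libraries lie closer to the combination than the alpelisib libraries do.

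The number of genes past the threshold depended on single libraries. It was 0 without vehicle 3 and 0 without combination 3, 1 without vehicle 4 and 3 without vehicle 1. It was 16 without combination 1 and 6 to 12 without any other library of these 2 groups. The single-drug libraries were not left out 1 at a time for this count. At an unadjusted p of 0.05 there were 1075 genes without vehicle 3 and 942 without combination 3. Differences of the 9 genes themselves kept their sign when each library of the 2 groups was left out in turn. Mcam ranged from -1.30 to -1.08, Notch4 from -1.72 to -1.52, Mest from -1.83 to -1.45 and Id2 from 1.25 to 1.54. Chst1 ranged more widely, from -2.31 to -1.71, with an adjusted p of up to 0.236 (limma). Trp53i11 ranged from -2.30 to -1.89 and Prnd from -1.96 to -1.64. Leaving out the 2 libraries rich in skeletal muscle transcripts (combination 1 and nintedanib 4) gave 24 genes, 6 higher and 18 lower, with all 9 among them. Scaling to human plus mouse totals raised the median of all genes to log2 0.32 and left 1 gene, Id2, which was higher. On recovered reads, edgeR's quasi-likelihood test gave 7 genes (2 higher, 5 lower), 6 of them among the 9, limma-voom gave 3 and DESeq2 gave 75 (34 higher, 41 lower), with all 9 among them. The mouse values of the 8 genes with a human gene of the same symbol had correlations with the human values of at most 0.66, and without the 1076 tested genes above 0.7 there were 14 genes past the threshold.

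Genes of the vessel wall lay lower with both drugs across the endothelial list. All 27 pan-endothelial genes had a difference below 0, with a median of log2 -0.66 against 0.03 for all genes tested. Of these, 14 had an unadjusted p under 0.05 (3.39% of all genes did so on the lower side), and 6 had all 4 combination libraries below all 4 vehicle libraries (1.84% of all genes). Their summed share of the mouse signal was 0.239%, 0.198%, 0.209% and 0.210% with vehicle and 0.171%, 0.158%, 0.114% and 0.111% with both drugs, so that the groups did not overlap. In bulk tissue fewer endothelial cells and less RNA per endothelial cell cannot be told apart. The list median was -0.73 without combination 1, the library richest in muscle transcripts in this comparison, and -0.57 without combination 4, the 2 ends of its range when each library was left out. It was -0.34 after scaling to human plus mouse totals, 0.66 below the median of all genes on that scale.

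Esam, an adhesion molecule of endothelial junctions, just missed the adjusted threshold. It read 728, 656, 620 and 659 with vehicle and 396, 372, 266 and 221 with both drugs (-1.12, SE 0.21, adjusted p = 0.0518, limma). Cdh5, the endothelial junction protein VE-cadherin, read 543, 521, 702 and 865 against 399, 300, 300 and 312 (-0.98, SE 0.25). Combination 1 was the highest of its group, and still below the lowest vehicle library. Rasip1, a Ras-interacting protein needed for vessel lumens, read 788, 409, 664 and 344 with vehicle and 328, 237, 130 and 68.9 with both drugs (-1.67, SE 0.40). Mmrn2, an endothelial matrix protein, read 544, 546, 594 and 601 against 361, 328, 197 and 250 (-1.04, SE 0.26). In Rasip1 both groups ranged widely, and in Mmrn2 the vehicle libraries were close together.

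Of the VEGF receptors, targets of nintedanib, only Kdr separated the groups. Kdr (VEGFR2), the main VEGF receptor of endothelial cells, read 458, 418, 730 and 480 with vehicle and 335, 342, 364 and 347 with both drugs (-0.55, SE 0.20, unadjusted p = 0.011, adjusted p = 0.466, limma). Flt1 (VEGFR1), which also binds VEGF, read 269, 301, 497 and 214 against 226, 140, 165 and 307 (-0.60, SE 0.27), and its groups overlapped. Flt4 (VEGFR3), the receptor of lymphatic and sprouting endothelium, read 152, 87.1, 92.9 and 88.7 against 160, 38.5, 112 and 32.4, with 2 combination libraries above most vehicle libraries and 2 below all of them. The ligand Vegfa read 350, 277, 530 and 497 with vehicle and 315, 499, 700 and 994 with both drugs (0.52, SE 0.38). The correlation of mouse with human Vegfa was above 0.7, so reads of tumour cells could bear on this value, which was not tested. Over the 10 VEGF receptors and ligands 5 stood above and 5 below 0.

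Among 15 genes of sprouting tip cells 14 were below 0, with a median of -0.64, and 6 separated the groups on the lower side (1.84% of all genes did so). Mcam was the 1 member that passed the threshold. Dll4, the Notch ligand of tip cells, read 88.5, 103, 138 and 186 with vehicle and 63.6, 45.1, 58.5 and 41.6 with both drugs (-1.25, SE 0.30, adjusted p = 0.227, limma). Its mouse and human values were correlated above 0.7, and the part of tumour cell reads in it was not tested. Apln, the ligand of the apelin receptor and a marker of sprouting vessels, read 818, 486, 581 and 561 against 260, 297, 407 and 373 (-0.86, SE 0.25). Ramp3, which modifies receptors for adrenomedullin, read 247, 116, 235 and 261 against 60.6, 104, 41.3 and 38.5 (-1.84, SE 0.35, adjusted p = 0.0518, limma). Each of the 3 separated the groups, although for Ramp3 vehicle 2 and combination 2 lay close to each other.

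Of 12 vascular Notch genes 10 were below 0 (median -0.46), and Notch4 passed the threshold. Besides Notch4 and Dll4, the targets Heyl and Nrarp separated the groups (1.84% of all genes did so on the lower side). Heyl, a transcription factor that Notch induces in mural cells, read 266, 214, 214 and 242 with vehicle and 213, 123, 69.95 and 129 with both drugs (-0.90, SE 0.28). Its gap was narrow, from 213 in combination 1 to 214 in vehicle 2 and 3. Nrarp, a feedback inhibitor of Notch, read 127, 131, 157 and 182 against 75.4, 108, 88.3 and 122 (-0.60, SE 0.25). These 4 were also the members with an unadjusted p under 0.05 (3.39% of all genes on the lower side). There were 7 without combination 4. That omission also raised the number over all genes, from 1341 to 1974.

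The basement membrane on which endothelial cells sit was represented by 13 genes, 12 of them below 0 with a median of -0.38. Col4a1 and Col4a2 encode the 2 chains of its main collagen. Col4a1 read 3865, 3521, 3885 and 5164 with vehicle and 2814, 2310, 1979 and 2319 with both drugs (-0.80, SE 0.18, adjusted p = 0.185, limma). Col4a2 read 2509, 1849, 3395 and 3200 against 1625, 1615, 972 and 883 (-1.12, SE 0.24, adjusted p = 0.0997, limma). Both separated the groups. Col18a1, the collagen from which endostatin is cut, read 775, 799, 526 and 1112 against 589, 453, 328 and 392 (-0.85, SE 0.21), and combination 1 lay above vehicle 3.

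Mural cells showed a more mixed picture. Of 12 pericyte genes 7 were below and 5 above 0, with a median of -0.34 (-0.19 without combination 4). Mcam, which is on the tip cell list too, was the 1 member past the threshold. Pdgfrb, the PDGF receptor that recruits pericytes and a target of nintedanib, read 835, 1015, 811 and 1060 with vehicle and 615, 789, 680 and 799 with both drugs (-0.37, SE 0.20). The groups did not overlap, but the gap from 799 to 811 was small. Rgs5, a G protein regulator that marks pericytes, read 53.5, 336, 210 and 168 against 61.4, 23.5, 58.5 and 217, and vehicle 1 lay with the lower combination libraries. Steap4, a metal reductase of mural cells, was higher in all combination libraries, at 103, 155, 221 and 89.2 against 83.0, 34.8, 48.3 and 75.1 with vehicle (1.21, SE 0.44, adjusted p = 0.478, limma).

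Of 11 contractile smooth muscle genes 10 were below 0, with a median of -0.47 that became -0.69 without combination 1. Acta2, smooth muscle actin, which activated fibroblasts also make, read 10546, 8273, 9921 and 9038 with vehicle and 6408, 5860, 5611 and 6519 with both drugs (-0.63, SE 0.24). Its groups lay apart. Myh11, smooth muscle myosin, read 154, 148, 159 and 146 against 168, 77.7, 49.3 and 88.2 (-0.80, SE 0.31), so that combination 1 lay above every vehicle library. Actg2, an enteric smooth muscle actin, showed the same library high, at 634 in combination 1 and 190, 174 and 253 in the others against 314 to 792 with vehicle, and its values too were correlated with the human gene above 0.7.

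**Figure D2:**
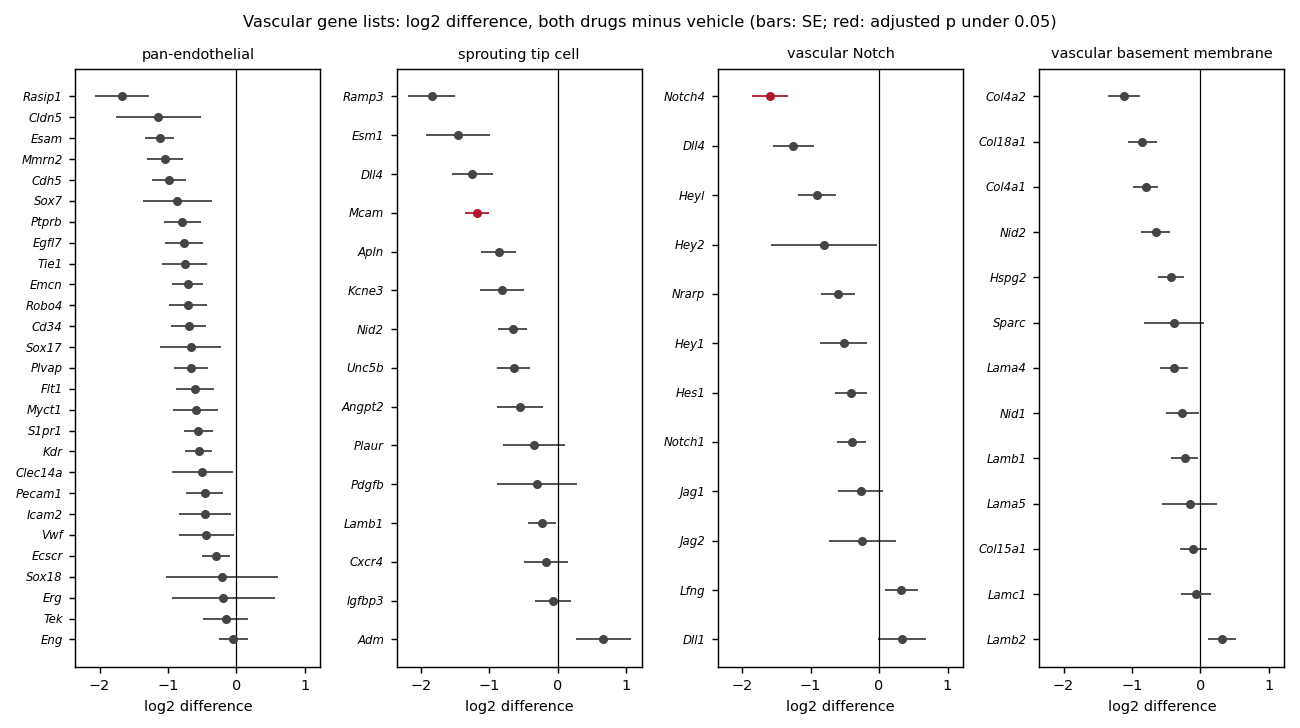
Difference between both drugs and vehicle (log2) for each member of the vascular gene lists; points are genes, bars are standard errors, and red marks genes past the adjusted threshold. All 27 pan-endothelial genes, 14 of 15 tip cell genes, 10 of 12 vascular Notch genes and 12 of 13 basement membrane genes lie below 0.

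Lymphatic genes did not share the lower values. Of 8 tested, 6 were above 0 and the median was 0.55. Reln, an extracellular protein of lymphatic endothelium, read 1.84, 2.49, 4.83 and 4.09 with vehicle and 34.8, 4.57, 12.6 and 16.2 with both drugs, on at most 48 reads in a library. Fgl2, a fibrinogen-like protein, read 216, 250, 163 and 190 against 305, 497, 904 and 171, and combination 4 lay within the vehicle range. Tie1, a Tie receptor of endothelial cells, read 187, 144, 188 and 190 against 150, 95.3, 78.0 and 104 (-0.76, SE 0.33). Tek, the other Tie receptor, stood at -0.16 (adjusted p = 0.954, limma). Angptl4, an inhibitor of lipoprotein lipase grouped with the angiopoietins, read 184, 75.9, 104 and 101 against 213, 356, 364 and 136 (1.16, SE 0.37).

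The BMP and Id list split. Id2 rose, while Id1, its close relative and a direct BMP target, read 325, 388, 193 and 353 with vehicle and 249, 154, 196 and 163 with both drugs (-0.70, SE 0.26, adjusted p = 0.504, limma). Bmp4, a BMP ligand, read 124, 131, 147 and 139 with vehicle and 169, 54.2, 25.2 and 22.3 with both drugs (-1.47, SE 0.46). Combination 1 was again the exception, above all vehicle libraries, and the other 3 lay at 54.2 or below. Over the list 9 of 14 members were below 0, with a median of -0.18. After scaling to human plus mouse totals it was 0.14, again 0.18 below the median of all genes on that scale.

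Mest was the 1 imprinted gene of 15 past the threshold. Meg3, a maternally expressed long RNA, read 1813, 2789, 4315 and 2281 with vehicle and 1243, 1178, 1822 and 2474 with both drugs (-0.73, SE 0.37). Dlk1, from the same imprinted region, read 15.7, 14.9, 24.1 and 23.2 against 20.7, 1.96, 9.17 and 3.04, and combination 1 lay within the vehicle range. Dio3, an imprinted gene outside this list, went the other way, with separate groups. Its mean was 18.8 with vehicle and 88.5 with both drugs (1.997, SE 0.49, adjusted p = 0.227, limma). Combination 1 was its highest library, at 195.2 against 47.6 to 59.4 in the other combination libraries. The list median was -0.13, and -0.34 without combination 1. After scaling to human plus mouse totals, which raised all genes, it was 0.03, or 0.29 below the median of all genes on that scale. All 8 Hoxc genes tested were below 0, with a median of -0.51, which became -0.28 without combination 1 and -0.94 without combination 4. Hoxc10 read 262, 286, 308 and 255 against 294, 130, 166 and 210 (-0.53, SE 0.22). Hoxc6 read 273, 355, 419 and 209 against 147, 185, 118 and 332 (-0.74, SE 0.31). In these neighbours of Hoxc9 1 combination library each (combination 1 and combination 4) stood within the vehicle range. Transcripts of this cluster overlap, and whether reads of neighbours were fully separated was not tested.

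Fibroblast genes as a whole showed no common direction, with 12 of 20 above 0 and a median of 0.13. Cilp, a matrix protein of cartilage and fibroblasts, was the member with the smallest p. It read 343, 556, 221 and 452 with vehicle and 1723, 1181, 759 and 925 with both drugs (1.55, SE 0.30, adjusted p = 0.0578, limma), and the groups did not overlap. Dcn, the collagen-binding proteoglycan decorin, read 2154, 1875, 4174 and 2529 against 2805, 4394, 4979 and 4631 (0.68, SE 0.34). Svep1, a secreted matrix protein listed with the angiopoietin pathway, read 126, 101, 110 and 157 with vehicle and 257, 227, 187 and 167 with both drugs (0.76, SE 0.19).

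Of 14 collagens, some of them also in the fibroblast list, 13 were below 0 with a median of -0.37. Only Col5a1 and Col11a1 had an unadjusted p under 0.05 (3.39% of all genes did so on the lower side), and there were 4 such members without combination 2. Col5a1, a chain that regulates fibril assembly, read 9140, 8113, 8589 and 9188 with vehicle and 5253, 8367, 4757 and 5852 with both drugs (-0.56, SE 0.26). Combination 2 lay among the vehicle libraries. Col11a1 read 332, 393, 614 and 611 against 251, 106, 167 and 435 (-1.16, SE 0.36), and its correlation with the human gene was above 0.7. Mmp14, the membrane-bound metalloproteinase that cuts collagen and activates Mmp2, read 13399, 14464, 18243 and 10521 with vehicle and 7153, 6825, 4195 and 7420 with both drugs (-1.15, SE 0.26, adjusted p = 0.191, limma), and its groups lay well apart. Over the 17 metalloproteinases and inhibitors the median was -0.05. It was 0.26 after scaling to human plus mouse totals, or 0.06 below the median of all genes.

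Immune genes were higher in some combination libraries and not in others. The NK and T cell list had 16 of 17 members above 0 and a median of 1.82, with 5 members separated from vehicle on the higher side (2.01% of all genes). Of its members 9 had an unadjusted p under 0.05 on the higher side (4.28% of all genes) and 1 on the lower (3.39%). This total of 10 was 6 without combination 2, 6 without combination 3 and 15 without combination 4. Over all genes the total was 1278, 942 and 1974 in the same order, against 1341 with all libraries. The list median ranged from 1.43 without combination 2 to 2.36 without combination 4. Cd3e, a chain of the T cell receptor complex, read 3.69, 0, 1.21 and 0 with vehicle and 5.92, 69.9, 37.8 and 8.11 with both drugs. Cd3d, of the same complex, read 3.69, 2.49, 7.24 and 0 against 11.1, 86.2, 33.3 and 14.2 (2.998, SE 0.83, adjusted p = 0.305, limma). Combination 2 and combination 3 were the high libraries. Prf1, the pore-forming protein perforin, was the 1 on the lower side (-1.84, unadjusted p = 0.0253) and was singled out after its values were seen. Klrd1, the CD94 receptor of NK cells, read 1.84, 1.24, 3.62 and 0 against 5.92, 18.3, 19.5 and 7.10, on at most 28 reads in a library. With values this low a log2 difference depends on the pseudocount. The list's summed share was 0.00253% to 0.00508% of the mouse signal with vehicle and 0.00608%, 0.0322%, 0.0213% and 0.00573% with both drugs.

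The same 2 libraries were high for other immune genes. Cxcl9, an interferon-induced chemokine that attracts T cells, read 78.4, 41.1, 119 and 71.0 with vehicle and 146, 1022, 1483 and 189 with both drugs (2.63, SE 0.92, adjusted p = 0.455, limma). The interferon response list as a whole had 14 of 25 members above 0 and a median of 0.05. All 14 CC chemokines were above 0, with a median of 1.22 that was 0.78 without combination 3. Of these, 8 had an unadjusted p under 0.05 (4.28% of all genes did so on the higher side), and their groups overlapped in every case. This count was 2 without vehicle 2, 4 without combination 2, 3 without combination 3 and 10 without combination 4. Over all genes it was 1253, 1278, 942 and 1974 in the same order, against 1341 with all libraries. Ccl8, an attractant of monocytes and other leukocytes, read 3992, 2013, 1637 and 1740 with vehicle and 3222, 16144, 12681 and 2221 with both drugs (1.4997, SE 0.50). Ccl6 read 3902, 500.1, 2440 and 1449 against 1845, 7659, 10450 and 3686 (1.57, SE 0.57). For both genes vehicle 1 lay above combination 1 and combination 4.

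Cxcl13, which draws B cells into lymphoid follicles, was higher in all 4 combination libraries. It read 26.7, 24.9, 24.1 and 20.5 with vehicle and 45.8, 463, 147 and 238 with both drugs (2.74, SE 0.52, adjusted p = 0.0518, limma). The vehicle libraries were close together and the combination libraries far apart. Over the 9 B cell and plasma cell genes tested all were above 0 with a median of 0.98, which depends on the pseudocount and was 2.77 with a pseudocount of 0.1. Their levels were low. Cd79b, a chain of the B cell receptor complex, read 5.53, 0, 2.41 and 9.55 against 8.87, 39.8, 16.1 and 5.07, with overlapping groups.

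Antigen-presenting and myeloid cells followed with smaller differences. Of 17 dendritic cell and MHC class II genes 14 were above 0 with a median of 0.67, which was 0.32 without combination 2. H2-Ab1, a class II chain, read 3910, 2526, 2344 and 2302 with vehicle and 3813, 7822, 5015 and 2690 with both drugs (0.73, SE 0.30). Of 22 macrophage genes 18 were above 0 with a median of 0.34. Aif1, a calcium-binding protein of macrophages, read 587, 610, 434 and 424 against 694, 794, 1474 and 622 (0.73, SE 0.29), a narrow separation. Clec4a2, a lectin receptor of myeloid cells, read 108, 77.1, 79.7 and 117 against 212, 266, 403 and 129 (1.30, SE 0.27, adjusted p = 0.0997, limma). Cd53, a tetraspanin of leukocytes, read 154, 152, 141 and 187 against 203, 254, 515 and 480 (1.09, SE 0.27). Both separated the groups.

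Neutrophil genes had 11 of 17 members above 0 and a median of 0.28, which was 0.09 without vehicle 1. S100a8, 1 subunit of the neutrophil protein calprotectin, read 180, 177, 121 and 160 with vehicle and 654, 505, 440 and 197 with both drugs (1.38, SE 0.42). Its partner S100a9 read 373, 398, 290 and 273 against 903, 562, 992 and 335, and combination 4 lay within the vehicle range. All 6 stefin A genes tested, which encode protease inhibitors of myeloid cells, were above 0. Gm5483 read 4.61, 0, 0 and 0 with vehicle and 12.6, 12.4, 25.2 and 31.4 with both drugs (adjusted p = 0.0526, limma). BC100530 read 0.922, 1.24, 2.41 and 0 against 13.3, 20.9, 39.0 and 3.04. These genes are near-identical copies, so the counts of single members are uncertain, and their log2 differences depend on the pseudocount.

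**Figure D3:**
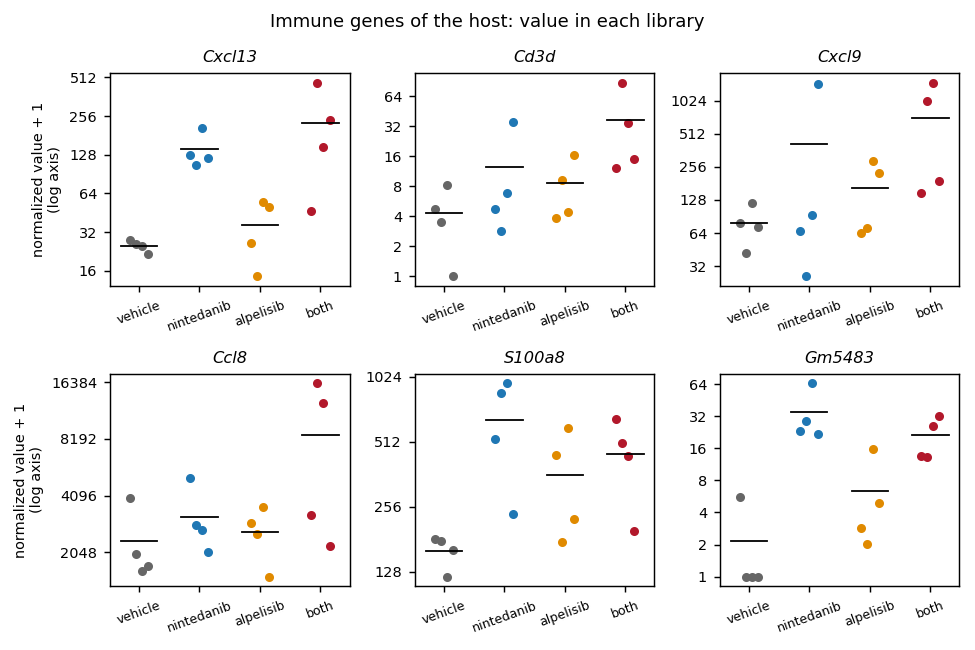
Normalized value plus 1 (log axis) in each library for 6 immune genes, by group; points are libraries and lines are group means. Cxcl13 and Gm5483 are higher in all 4 combination libraries than in any vehicle library, while for Ccl8 2 combination libraries (16144 and 12681) stand high and the other 2 lie among the vehicle values.

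Genes of hypoxia and glycolysis were higher, with all 21 above 0 and a median of 0.61, which was 0.36 without vehicle 2. Pgk1, a glycolytic kinase, read 752, 649, 1040 and 1137 with vehicle and 1178, 1254, 1678 and 1562 with both drugs (0.69, SE 0.22). Ldha, lactate dehydrogenase A, read 2339, 1632, 2430 and 2248 against 3904, 2797, 3152 and 3252 (0.61, SE 0.21, adjusted p = 0.443, limma). Vehicle 2 was the lowest library for both, and both separated the groups. Of the 20 members with a human gene of the same symbol, 13 had mouse and human values correlated above 0.7 over the 16 libraries, against 1076 of 13627 among all genes tested. The share of tumour cell reads in these values was not tested.

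Mitosis genes were mostly lower, with 19 of 22 below 0 and a median of -0.48, which was -0.26 without vehicle 2. Cenpe, a kinetochore motor, read 88.5, 167, 123 and 126 with vehicle and 73.2, 36.6, 45.9 and 68.9 with both drugs (-1.17, SE 0.35). Ube2c, a ubiquitin-conjugating enzyme of mitotic exit, read 180, 281, 217 and 177 against 145, 97.3, 99.8 and 125 (-0.86, SE 0.27). Vehicle 2 was the highest library for both, and both separated the groups. DNA replication genes differed from this, with 17 of 20 above 0 and a median of 0.29. Pcna, the sliding clamp of DNA polymerase, read 111, 173, 110 and 209 with vehicle and 276, 240, 429 and 250 with both drugs (0.999, SE 0.23, adjusted p = 0.208, limma), with separate groups.

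Genes of the pathways the drugs act on showed small differences. Over 19 PI3K and insulin receptor genes the median was -0.07. After scaling to human plus mouse totals it was 0.25, or 0.07 below the median of all genes. Pik3ca, which encodes the kinase alpelisib inhibits, read 175, 226, 390 and 210 with vehicle and 211, 114, 140 and 302 with both drugs (-0.42, SE 0.27). The other subunits stood at -0.18 (Pik3cb, SE 0.33), 0.18 (Pik3cd, SE 0.31) and 0.09 (Pik3r1, SE 0.24), all with overlapping groups. Among the growth factor receptors Pdgfra stood at 0.28 (SE 0.28), Fgfr1 at -0.33 (SE 0.23) and Fgfr2 at -0.14 (SE 0.40), and Fgfr3 read at most 12.6 in these libraries. After scaling to human plus mouse totals Pik3cb, Fgfr1 and Fgfr2 stood at 0.14, 0.00067 and 0.18, above 0 but still below the median of all genes on that scale (0.32).

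Of the 23 FOXO targets, genes that are switched on when PI3K signalling is low, 16 were above 0 with a median of 0.15. Sesn1, a stress sensor that restrains mTORC1, read 42.4, 103, 54.3 and 64.1 with vehicle and 146, 105, 179 and 108 with both drugs (1.06, SE 0.27, adjusted p = 0.232, limma), and the gap from 103 to 105 was small. Of 21 ERK pathway output genes 13 were below 0, with a median of -0.03. Scaled to human plus mouse totals it was 0.27, or 0.05 below the median of all genes. Dusp6, the phosphatase that ERK induces as its own brake, read 1783, 2692, 3277 and 2137 with vehicle and 1665, 1381, 1726 and 1417 with both drugs (-0.64, SE 0.25), with separate groups. Its values correlated above 0.7 with human DUSP6.

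Across the lists, skeletal muscle genes depended most on a single library. Their median was 0.89, and -0.91 without combination 1. The adipocyte median was 0.03, with 0.93 without vehicle 1 and -0.68 without combination 2. With muscle and adipocyte scores as covariates 17 genes passed the threshold (5 higher, 12 lower), all 9 among them, and the pan-endothelial median was -0.65.

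**Figure D4:**
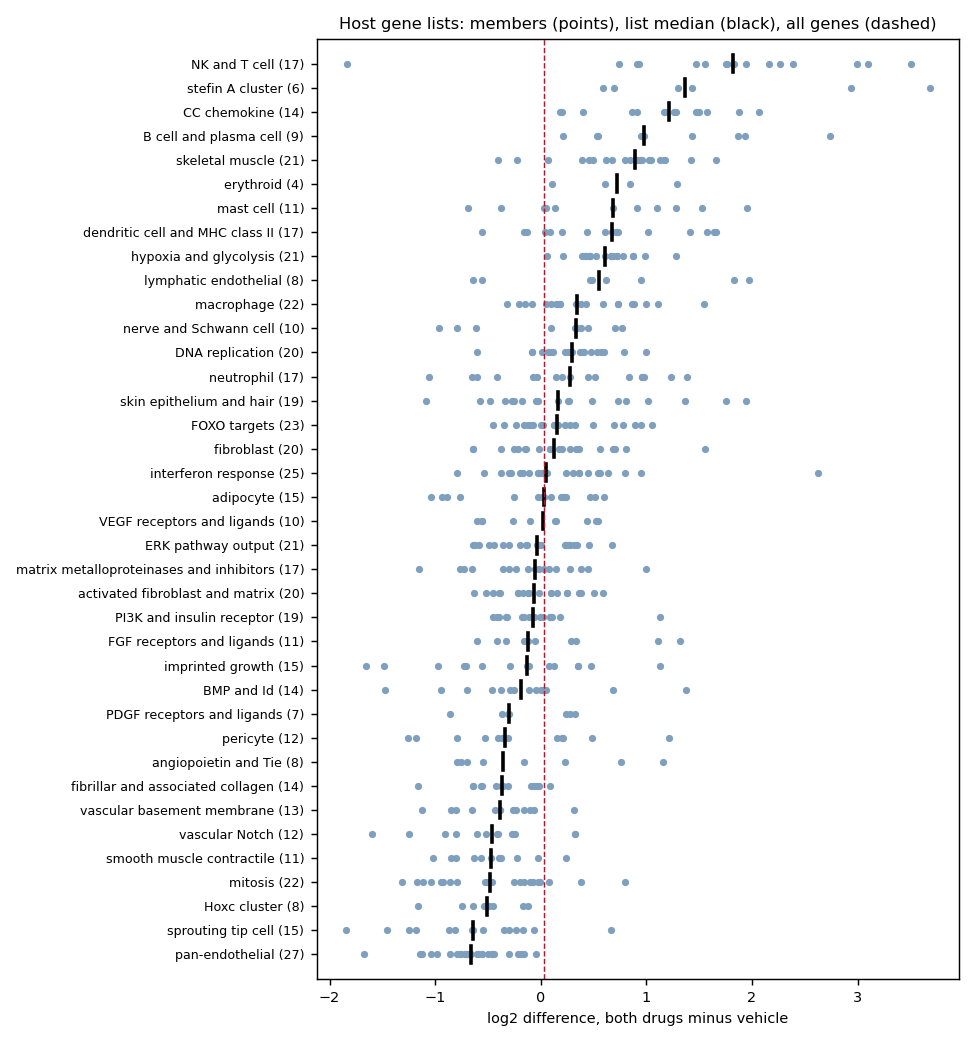
Difference between both drugs and vehicle (log2) for the members of each host gene list. Blue-grey points are genes and black marks are list medians. The number of genes tested is in brackets, and the dashed line is the median of all genes (0.03). The NK and T cell (1.82) and CC chemokine (1.22) medians lie furthest above 0 among the immune lists, and the pan-endothelial (-0.66) and tip cell (-0.64) medians furthest below.

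The combination was also set beside each drug alone. The 3 contrasts with vehicle share the vehicle libraries, so their values are given side by side. With nintedanib alone Mcam stood at -1.06 against vehicle, Notch4 at -1.16, Trp53i11 at -1.28, Mest at -1.07 and Id2 at 1.13. With alpelisib alone the same genes stood at -0.55 (Mcam), -0.19 (Notch4), -0.20 (Trp53i11), -0.33 (Mest) and 0.18 (Id2). Neither drug alone had a gene past the adjusted threshold, with 0 calls by limma for nintedanib (0%) and 0 for alpelisib (0%). At an unadjusted p under 0.05 there were 1051 genes (6.01%) for nintedanib and 570 (3.26%) for alpelisib. Mcam just missed the adjusted threshold with nintedanib (adjusted p = 0.0546, limma), so 9 calls against 0 do not set the combination apart from nintedanib. The pan-endothelial median was -0.65 with nintedanib, -0.09 with alpelisib and -0.66 with both, and the tip cell median was -0.59, -0.27 and -0.64. Averaged over the pan-endothelial list, nintedanib 1 to 4 stood at log2 -0.90, -0.60, -0.74 and 0.06 from the vehicle mean. The muscle-rich nintedanib 4 was thus near vehicle, although its summed share was 0.185% against 0.198% to 0.239% with vehicle. The NK and T cell median was 1.02 with nintedanib, 0.20 with alpelisib and 1.82 with both. Its signal share was 0.00421%, 0.00409% and 0.00502% in nintedanib 1 to 3, within the vehicle range. Only the muscle-rich nintedanib 4 was high, at 0.0208%. Other immune medians, with nintedanib and with both, were 0.07 and 0.34 (macrophage), 0.78 and 0.28 (neutrophil) and 0.635 and 0.67 (dendritic cell). They were 1.05 and 0.98 (B cell), 0.28 and 0.69 (mast cell), 0.59 and 1.22 (CC chemokine) and -0.17 and 0.05 (interferon).

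Tested directly, the combination did not differ from nintedanib in any gene at the adjusted threshold (0 calls by limma, 0%; 898 genes or 5.14% at an unadjusted p under 0.05; 0 calls by edgeR, DESeq2 and limma-voom). The 9 genes were chosen for their difference from vehicle in these same combination libraries, which favours larger values with both drugs, so their differences from nintedanib are given as a description. Of the 9, 7 had an unadjusted p of 0.05 or more. For Trp53i11 the combination was lower than nintedanib by log2 -0.79 (95% interval -1.50 to -0.08, unadjusted p = 0.0319) and for Mest by -0.58 (-1.11 to -0.05, unadjusted p = 0.0334), the 2 of 9 with an unadjusted p under 0.05. For Mcam the difference was -0.12 (-0.48 to 0.25), for Notch4 -0.43 (-0.98 to 0.12) and for Id2 0.25 (-0.20 to 0.70). These intervals include 0 and also differences of up to log2 0.98 in size, so they do not show that the treatments act alike. The smallest adjusted p of the 9 was 0.939.

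Against alpelisib alone, limma also called 0 genes (0%; 1007 genes or 5.76% at an unadjusted p under 0.05), as did edgeR and limma-voom, while DESeq2 called 26. All 9 genes had an unadjusted p under 0.05 in this contrast, with a smallest adjusted p of 0.183. Id2 was higher with both drugs than with alpelisib by log2 1.20 (95% interval 0.75 to 1.65), and Notch4 was lower by -1.41 (-1.96 to -0.86). For Mest the difference was -1.32 (-1.85 to -0.79) and for Trp53i11 -1.87 (-2.58 to -1.16). Mcam (-0.63, -0.99 to -0.27) and Hoxc9 (-0.59, -1.02 to -0.16) differed least. As these genes were chosen for their difference from vehicle in the same combination libraries, the unadjusted values describe them and are not independent of that choice.

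**Figure D5:**
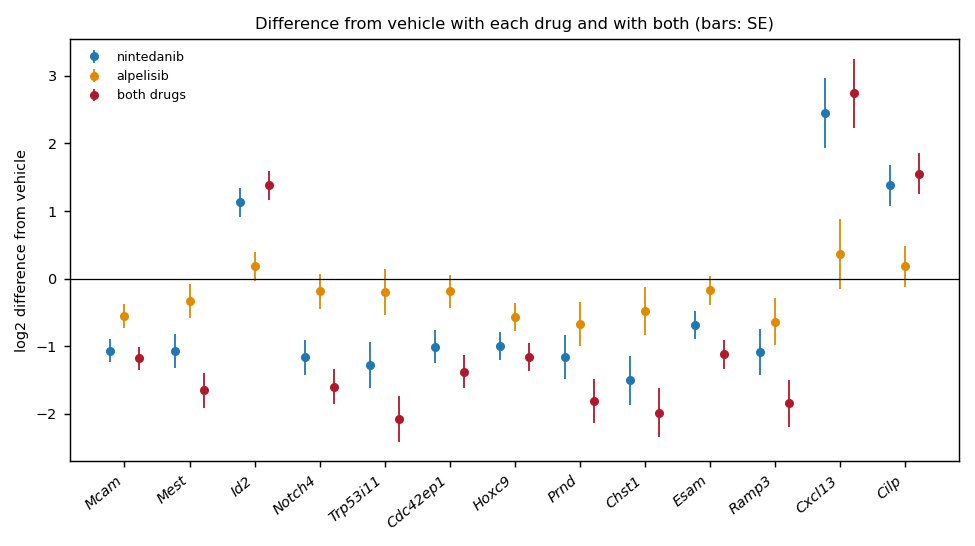
Difference from vehicle (log2, with standard error bars) for nintedanib, alpelisib and both drugs, for the 9 genes past the threshold and 4 near it. Notch4 stands at -1.16, -0.19 and -1.60 in that order, and Id2 at 1.13, 0.18 and 1.38.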

How the data were processed

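Expression was measured in 16 libraries of 4 groups with QuantSeq, a 3′-end messenger RNA kit, per the labels' protocols. Per the submitters' processing notes, TopHat and the builds hg19 and mm10 were used. The counting tool, annotation and scaling were not given in the sources used here, and no coordinates or sequences are printed because no mouse annotation was used here. The deposited table holds a normalized signal per gene and library. Within a tolerance of 0.01 read, 100% of the values in each library were whole multiples of 1 step, so the deposited signal equals read counts over a library-wide size factor. Those reads were recovered for the count tests. Depth limits low genes and gives counting error only.

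The plan had a branch for normalized values, which applied. The analysis used log2(value + 1) and kept genes reaching 1 in 4 or more libraries. In R 4.3.3, limma 3.58.1 (eBayes with a trend) fitted 1 mean per group over 16 libraries, with Benjamini-Hochberg adjustment over 17484 genes and a threshold of 0.05. Intervals are at 95%. A fold change on this scale understates the change of low genes. Alternatives were limma-voom, edgeR 4.0.16 and DESeq2 1.42.0 on those reads, 2 other scalings, other filters and pseudocounts, covariates, a replicate block and leaving out libraries. Single libraries were left out only from the 2 groups that a contrast compared. The steps were tested on simulated data.

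The comparison, the gene lists and the rule for named genes were chosen with earlier results of these data known. The rule took genes past the threshold, then genes of at least median level (log2 5.33) with separate groups and the smallest p up to 15 each way, up to 4 members of each list, and the drug targets. Genes are named by the symbols of the table. A few older symbols were added to the lists after the table was seen.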

Additional observations from a re-analysis of the deposited data

Results flagged for a closer look

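For the genes named here, 224 groups of 4 libraries were searched for 1 value far from the other 3, and 9 were found. Chance gives about 5% of groups picked without regard to their values. These genes were picked by small p, and some by separate groups, so 9 of 224 cannot be judged against that share. In vehicle, Ramp3 read 115.7 in vehicle 2 (235.4 to 260.7 in the others), Tie1 read 144.3 in vehicle 2 (187.2 to 189.7), Flt4 read 152.1 in vehicle 1 (87.1 to 92.9), Gm5483 read 4.61 in vehicle 1 (0 in the others) and Tnfrsf13c, a B cell survival receptor, read 1.21 in vehicle 3 (0 in the others). With both drugs, Dio3, an imprinted enzyme that inactivates thyroid hormone, read 195.2 in combination 1 (47.6 to 59.4), Cdh5 read 398.6 in combination 1 (299.7 to 312.2), Mmp14 read 4195 in combination 3 (6825 to 7420) and Tnfrsf13c read 0.739 in combination 1 (4.59 to 6.08).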

How the results depend on the processing

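The count of 9 genes was 11 with quantile normalization, 7 without the filter, 13 with a pseudocount of 0.1 and 7 with edgeR. It was 1 after scaling to human plus mouse totals, 0 with limma without the trend (1306 at an unadjusted p under 0.05), 0 with only the 2 groups fitted (1097), 15 at a value of at least 10, 24 without the 2 libraries rich in skeletal muscle transcripts, 17 with muscle and adipocyte scores as covariates, 14 without genes correlated with the human gene, 75 with DESeq2 and 3 with limma-voom. Leaving out 1 library of the 2 groups compared gave 0 to 16. For the combination against alpelisib the count of 0 became 1 without the muscle-rich libraries, 2 with covariates and 26 with DESeq2, and 0 to 1 when 1 library was left out (1 without combination 1). Against nintedanib it was 0 throughout. The cause of these shifts was not tested, except that fewer libraries or fewer genes were fitted in some. Replicate numbers did not pair the vehicle and combination libraries (correlations of their deviations from -0.287 to 0.104), and with the replicate block 3 genes passed, 1 higher and 2 lower. Of the 112 genes with alternatives run, signs flipped in 12 cases. After scaling to human plus mouse totals Fgfr1 stood at 0.00067, Fgfr2 at 0.18 and Pik3cb at 0.14. Fgfr2 stood at 0.010 with edgeR, 0.015 with DESeq2, 0.051 without vehicle 2 and -0.53 to 0.19 over all single omissions (0.19 without combination 3). Pik3cb ranged from -0.41 to 0.034 (without combination 2), Pik3r1 from -0.13 (without combination 4; -0.017 without vehicle 1) to 0.27, Pik3cd from -0.042 (without combination 3) to 0.51 and Fgfr3 from -1.06 to 0.19 (without combination 4). Low genes such as Cd3e and Klrd1 are limited by depth.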

Other observations

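Several genes outside the described groups did not pass the adjusted threshold but were named partly because their groups were separate. Their separation is therefore no result of its own, and 673 of the 17484 genes (3.85%) had separate groups. Ndufs4, a subunit of respiratory complex I, read 94.1, 122, 111 and 92.8 with vehicle and 214, 153, 213 and 250.4 with both drugs (0.97, SE 0.19, adjusted p = 0.0662, limma). Osbp2, an oxysterol-binding protein, read 132, 63.4, 107 and 80.5 against 23.7, 44.4, 20.6 and 17.2 (-1.86, SE 0.37, adjusted p = 0.0662, limma). Ace, angiotensin-converting enzyme, read 145, 82.1, 88.1 and 117 against 192, 317, 221 and 211 (1.12, SE 0.26). The proteasome subunit Psma2 stood at 0.84 (SE 0.20) and the peroxiredoxin Prdx4 at 0.79 (SE 0.20).

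Mast cell genes had 9 of 11 members above 0 and a median of 0.69, which was 0.38 without combination 1. Skin epithelium and hair genes had a median of 0.16, which turned to -0.29 without combination 4.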
